A study of Drosophila melanogaster with 4 samples.

Results

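Odorant-binding proteins (Obps) were examined in RNA recovered with dASF/SF2, an SR-family splicing factor, from Drosophila melanogaster larvae. The family was taken as every probe whose platform annotation gives exactly 1 gene symbol that starts with Obp and a digit. This gave 50 probes for 49 genes, of 15744 probes on the array, 13147 of which had 1 symbol. Obp59a had 2 probes, and each other gene had 1. The annotation of the fly genome used for names lists 52 genes of the family, counting lush, whose symbol the rule leaves out, while Obp73a and Obp83a had no probe under the rule.

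The study asked which mRNAs may be targets of dASF/SF2 in the developing eye. Flies carried GMR, a driver of the eye disc behind the morphogenetic furrow, with either GFP-dASF/SF2 or, as the control, GFP-NLS. Anti-GFP antibody on beads precipitated the tagged protein and its RNA from the pooled anterior ends of 600 third-instar larvae per extract, and each of 4 two-colour arrays set a GFP-dASF/SF2 precipitate against a GFP-NLS precipitate. The arrays with dASF/SF2 in Cy5 are called Cy5 arrays and those with dASF/SF2 in Cy3 are called Cy3 arrays. There was 1 of each in both replicates, and per the labels the arrays that share a replicate number are a dye swap.

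The extract held every tissue of the larval front end, so GMR restricts where the tagged protein was made, not where the RNA in the lysate came from. Nothing in the labels says that the replicates came from separate cultures, and the spread behind each p-value is only that between these samples and may be technical. A log ratio carries no level, so whether a gene was expressed at all, and whether eye tissue markers were present, could not be read from these values. The arrays compared precipitates only, and RNA of the lysates before precipitation was not measured. A difference in recovery with the tagged protein therefore cannot be told apart from a difference in RNA abundance between the lysates. Nor can it be told apart from RNA carried over without binding to the tagged protein. Within abundance, fewer cells of a type and less RNA per cell cannot be told apart either.

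Obps are small secreted proteins that bind hydrophobic ligands such as odorants. Support cells release many of them into the lymph around the dendrites of smell and taste neurons, in the larval head organs as well as in the adult antenna and legs. Others are made in the fat body, in glia or in the male reproductive tract, and members of the Plus-C class carry extra conserved cysteines beyond those of the classical members.

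The deposited values are log ratios of the 2 channels. The sources used here do not give the base of the logarithm or the numerator, so values are in log-ratio units without a fold or a direction towards either precipitate. Each array was centred on its median. In the turned reading the signs of the Cy3 arrays were reversed, so that a real difference between the precipitates keeps 1 sign if the values are dye ratios. In the other reading the arrays were left as they were, which applies if the values already are ratios of sample to sample. Positive and negative are used below only for the sign of these values.

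Across all probes, arrays of the same dye orientation correlated (Pearson r = 0.435 for the Cy5 arrays and 0.264 for the Cy3 arrays), while the dye-swapped pair had r = 0.236 and a Spearman rho of 0.191 in replicate 1, and r = -0.054 and rho = -0.467 in replicate 2. Over the 10850 probes with 1 gene symbol the pair of replicate 2 had r = -0.565. The columns held 13815 to 15330 values. Exact zeros filled 811 of them on the Cy3 array of replicate 2, none at an Obp probe. SF2 itself, the gene of the transgene, had turned values of -0.092 and -0.245 on the Cy5 arrays (replicates 1 and 2) and -0.224 and -0.339 on the Cy3 arrays. All 4 were negative, and with the numerator unstated this sign was not assigned to a precipitate.

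Most Obp probes lay on the positive side of the turned scale. All 4 arrays gave a value for 43 of the 50 probes (42 genes), and 32 of these had a positive turned mean and 11 a negative one, where 51.3% of the 12847 probes with 4 values were positive. The family median was 0.060, against 0.0043 over all these probes and 0.0005 over those with 1 gene symbol. In both replicates 26 members were positive, or 60.5% against 36.0% of all probes, and 4 were negative in both, or 9.3% against 34.2%. The family's median was 0.070 in replicate 1 and 0.078 in replicate 2. No test of the family as a whole was run, so these shares are descriptions.

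The same tilt was seen on each array. Positive turned values were found for 24 of 43 members on the Cy5 array of replicate 1 and for 28 on that of replicate 2. The Cy3 arrays had 30 positive members in replicate 1 and 29 in replicate 2. Over all probes the corresponding shares were 49.2% and 50.1% for the Cy5 arrays and 49.2% and 46.8% for the Cy3 arrays.

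No single member passed the threshold. In limma's moderated test the adjusted p-values of the 43 members ran from 0.117 to 0.988, and 0 of 12847 probes (0%) passed 0.05. An unadjusted p under 0.05 was found for 8 members, 4 positive and 4 negative, which is 18.6% of the family against 23.2% of all probes. At that rule the family therefore had no larger a share than the array as a whole. By direction the shares over all probes were 9.57% positive and 13.6% negative.

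**Figure D1:**
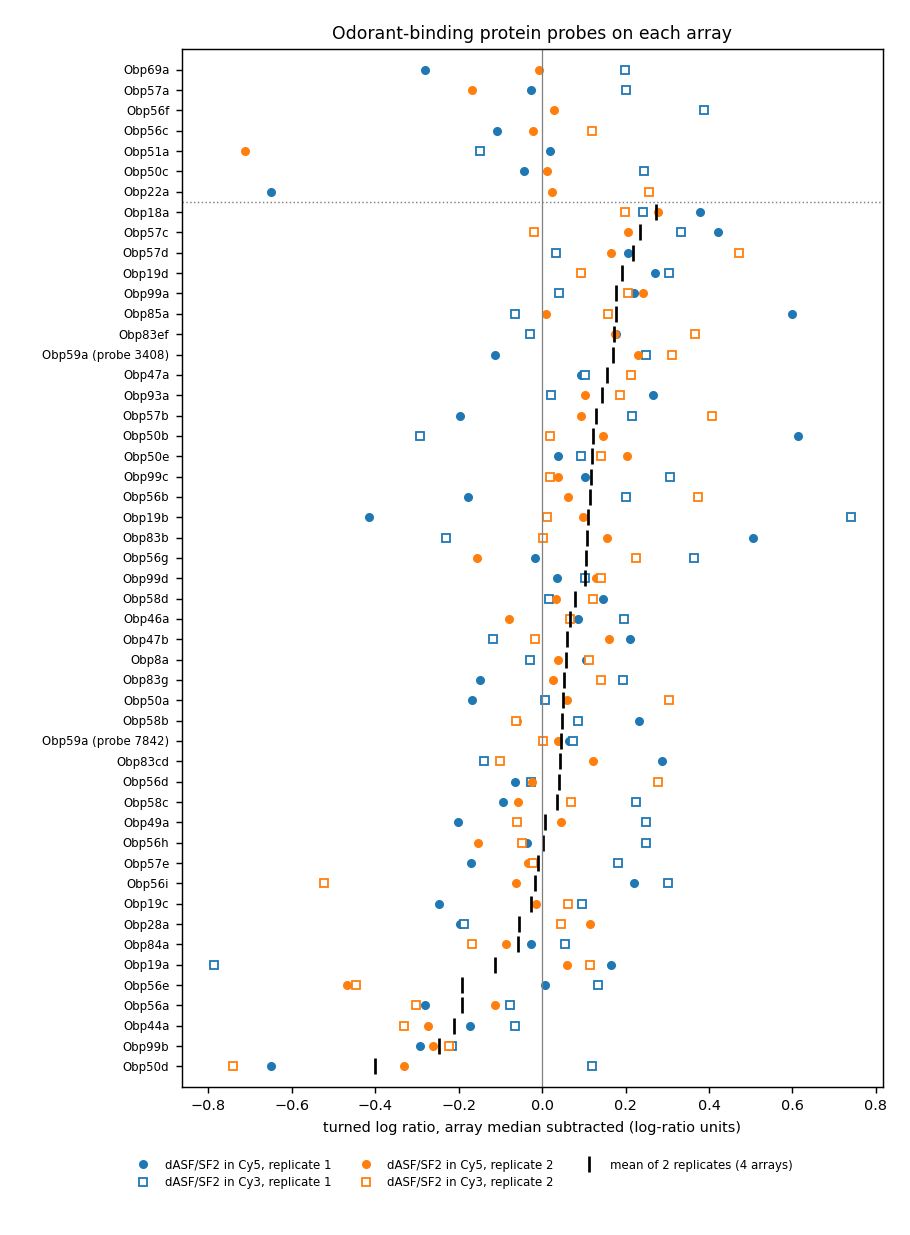
Turned log ratio of each of the 50 Obp probes (horizontal axis, log-ratio units, array median subtracted) on the 4 arrays, ordered by the mean of the 2 replicates, which is drawn as a black bar. Filled circles are Cy5 arrays, open squares are Cy3 arrays, and the 7 probes above the dotted line lack a value on at least 1 array. Points of most members spread across 0, while those of Obp99b lie between -0.292 and -0.216 and those of Obp18a between 0.198 and 0.378.

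On all 4 turned arrays 14 members kept 1 sign. It was positive for 11 of 43, or 25.6%, against 12.1% of all probes, and negative for 3, or 6.98%, against 16.1%. The 11 positive probes were those of Obp18a, Obp57d, Obp19d, Obp99a, Obp47a, Obp93a, Obp50e, Obp99c, Obp99d, Obp58d and 1 of the probes of Obp59a. The 3 negative ones were Obp99b, Obp44a and Obp56a.

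Obp18a had the highest mean of the family. Its turned values were 0.378 and 0.277 on the Cy5 arrays (replicates 1 and 2) and 0.241 and 0.198 on the Cy3 arrays. All 4 were well above 0, with a mean of 0.274 ± 0.051 (SD, n = 2; adjusted p = 0.125 in limma). With the arrays as observations and the replicate number as a block, limma's adjusted p was 0.0334. That fit called 1119 of 12847 probes, among them 2 of the 43 members, so a pass there was not particular to this gene.

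Obp99b, also known as turn on sex-specificity and made in the male fat body of adults, had the most even negative values. It had -0.292 and -0.261 on the Cy5 arrays and -0.216 and -0.224 on the Cy3 arrays. The mean was -0.248 ± 0.0081 (SD, n = 2; adjusted p = 0.130 in limma, and 0.0336 with the replicate block). That fit estimated a negative correlation within a block, which makes its standard errors smaller than those of independent arrays.

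The other members of the 99 group lay on the opposite side. Obp99a had turned values of 0.219 and 0.241 on the Cy5 arrays and 0.040 and 0.206 on the Cy3 arrays, with a mean of 0.176 ± 0.067 (SD, n = 2; adjusted p = 0.207 in limma). Obp99c had 0.102 and 0.039 on the Cy5 arrays and 0.307 and 0.018 on the Cy3 arrays. Obp99d had 0.036 and 0.128, and then 0.103 and 0.140. In this group every gene thus kept 1 sign on the 4 arrays, and Obp99b did not overlap the other 3 on any of them. The difference between these genes was not tested.

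Obp44a, which is made in glia of the central nervous system, was negative throughout. Its turned values were -0.173 and -0.274 on the Cy5 arrays and -0.065 and -0.332 on the Cy3 arrays, and the mean was -0.211 ± 0.130 (SD, n = 2; adjusted p = 0.189 in limma). Glial markers (repo, Gs2, alrm, Gli and moody) were positive for 5 of 5 probes, where 51.3% of all probes were, with a median of 0.322. Obp44a thus lay on the other side from these markers. Obp99b lay on the same side as the fat body markers (0 of 3 positive, median -0.186). Whether these tissues had a part in either value was not tested.

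Obp50d, a Plus-C member, had the lowest mean of the family but did not keep 1 sign. It was at -0.651 and -0.330 on the Cy5 arrays and at 0.120 and -0.742 on the Cy3 arrays. The mean was -0.401 ± 0.191 (SD, n = 2; adjusted p = 0.117 in limma). Without the Cy3 array of replicate 1, the only one with a positive value, the mean was -0.594. Without the Cy3 array of replicate 2 or the Cy5 array of replicate 1 it lay nearer 0, the nearest being -0.208.

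Most other Plus-C members had a positive turned mean, though most did not keep that sign on every array. Of the 12 tested members of the class, 11 had a positive mean, where 74.4% of the family and 51.3% of all probes did. The class median was 0.064. In both replicates 7 of the 12 were positive, where 60.5% of the family and 36.0% of all probes were. On all 4 arrays 3 of the 12 were positive, where 25.6% of the family and 12.1% of all probes were. Without turning, 7 of the 12 means were positive, where 53.2% of all probes were. The positive turned means of Obp49a, Obp58c, Obp50a, Obp47b and Obp50b changed sign with some array left out. Obp93a was at 0.266 and 0.102 on the Cy5 arrays and 0.021 and 0.187 on the Cy3 arrays, with a mean of 0.144 ± 0.00071 (SD, n = 2; adjusted p = 0.261 in limma). The small SD reflects replicate means that were nearly equal, not the arrays within them: without the Cy5 array of replicate 1 the mean was 0.083. Obp50e had 0.039 and 0.204, and then 0.092 and 0.141. Obp58d had 0.145 and 0.034, and then 0.017 and 0.121. Obp85a had the highest mean of the class at 0.176, but one value carried it: it was at 0.599 on the Cy5 array of replicate 1, at 0.010 on that of replicate 2, and at -0.065 and 0.159 on the Cy3 arrays. The remaining members with a positive mean ran from 0.008 (Obp49a, which takes part in the suppression of sweet taste by bitter compounds) to 0.121 (Obp50b).

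Obp50b and Obp50c share 1 span in the annotation, and Obp83cd overlaps Obp83ef. Probe sequences were not analysed here, so how far each probe of such a pair tells the genes apart is not known. Obp50b had turned values of 0.614 and 0.145 on the Cy5 arrays and -0.294 and 0.018 on the Cy3 arrays. Obp50c, with 3 values, had -0.044 and 0.012 on the Cy5 arrays and 0.243 on the Cy3 array of replicate 1. The 2 probes thus had opposite signs on both arrays of replicate 1.

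Genes that lie beside each other shared a sign in some groups and not in others. Neighbours were defined as family genes with at most 3 protein-coding genes between them, and 9 such groups were found, 8 of them with more than 1 tested probe. The probes of 3 groups were all on the positive side: Obp57c to Obp57a (2 probes, 0.130 and 0.235), Obp59a with Obp58b to Obp58d (5 probes, 0.037 to 0.170) and Obp83cd to Obp83g (3 probes, 0.043 to 0.172). Of the 43 tested members 74.4% were positive, and the means of Obp58c, Obp83cd and Obp83g changed sign with some array left out. In the other groups the sign was mixed. The range was 0.522 in the Obp50 group, 0.365 for Obp99c, Obp99d and Obp99b, and 0.308 in the Obp56 group. It was 0.303 in the Obp19 group and 0.229 for Obp57e and Obp57d. Whether neighbours were closer to each other than other members was not tested.

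**Figure D2:**
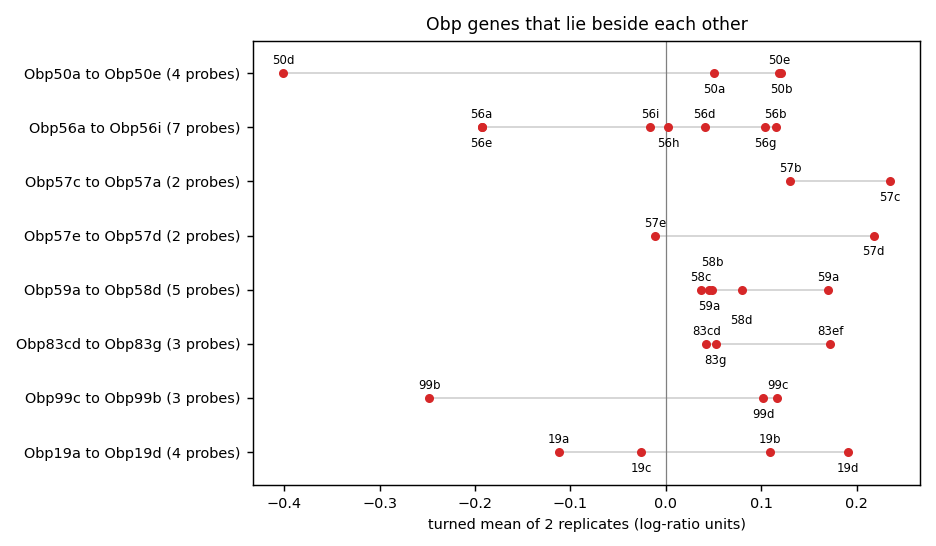
Turned mean of the 2 replicates (horizontal axis, log-ratio units) for Obp genes that lie beside each other in the genome, 1 row per group and 1 point per probe, labelled by the end of the gene symbol. Only groups with at least 2 tested probes are drawn, and the grey line spans the group. Obp50d and Obp99b stand on the negative side of groups whose other members are positive.

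The Obp56 group, with 9 genes the largest, spread on both sides. Obp56a was negative on all arrays, at -0.281 and -0.112 on the Cy5 arrays and -0.076 and -0.303 on the Cy3 arrays, with a mean of -0.193 ± 0.021 (SD, n = 2; adjusted p = 0.179 in limma). Obp56e, a gene of the male ejaculate, had the same mean of -0.193 with an SD of 0.373, since replicate 1 was at 0.007 (Cy5) and 0.134 (Cy3) and replicate 2 at -0.467 and -0.447. Replicates were also opposed for Obp56i, another seminal gene, at 0.220 and 0.301 in replicate 1 and -0.063 and -0.523 in replicate 2. For these genes the replicates differed by more than the mean, so no sign can be given. Obp56h, known from male mating behaviour, had a mean of 0.0028 ± 0.146.

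In the Obp57 group the taste gene Obp57d, which with Obp57e acts in the response to fatty acids of host plants, had one of the highest means of the family. Obp57d was at 0.205 and 0.166 on the Cy5 arrays and at 0.032 and 0.471 on the Cy3 arrays, with a mean of 0.218 ± 0.141 (SD, n = 2; adjusted p = 0.187 in limma). Its neighbour Obp57e had -0.171 and -0.035, and then 0.183 and -0.021, with a mean of -0.011 ± 0.024. Obp57c was at 0.422 and 0.206 on the Cy5 arrays and at 0.334 and -0.020 on the Cy3 arrays, with a mean of 0.235 ± 0.202 (adjusted p = 0.198 in limma). Of these 3 genes only Obp57d kept 1 sign on the 4 arrays.

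Obp19d, which is made in smell and taste organs, was positive on all arrays. It had 0.271 and 0.093 on the Cy5 arrays and 0.304 and 0.094 on the Cy3 arrays, so the dye-swapped arrays of each replicate gave nearly the same value, and the replicates differed. The mean was 0.191 ± 0.137 (SD, n = 2; adjusted p = 0.216 in limma). Obp47a also had close dye-swapped values, at 0.094 and 0.103 in replicate 1 and 0.212 and 0.214 in replicate 2, with a mean of 0.156 ± 0.081 (adjusted p = 0.253 in limma).

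Genes known from the adult antenna, smell's main organ, gave 7 tested probes, 4 positive and 3 negative, with a median of 0.041. Obp84a, of coeloconic sensilla, had a mean of -0.057 ± 0.10, and Obp28a, one of the most abundant antennal members, had -0.056 ± 0.193 with replicates of opposite sign. Obp59a, which is needed for humidity sensing, had 2 probes that differed. The probe with 1 sign was at 0.065 and 0.039 on the Cy5 arrays and 0.074 and 0.003 on the Cy3 arrays, with a mean of 0.045 ± 0.034, and the other was at -0.112 and 0.230 and then 0.250 and 0.311, with 0.170 ± 0.142. Their means were separated by less than the SD of the second.

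The 4 probes of taste genes (Obp19b, Obp49a, Obp57d and Obp57e) had a median of 0.059, with 3 positive. The 4 tested seminal genes were 2 positive and 2 negative (median 0.021). Neither group of genes held a member past the threshold.

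Not every member could be compared. Values on all 4 arrays were found for 43 of 50 Obp probes and for 12847 of the 15744 on the array. Of the 7 probes without 4 values, 6 had 3 values and 1 had 2, and 3 of the 7 belong to seminal genes (Obp22a, Obp51a and Obp56f). Values were found for 49 and 50 Obp probes on the Cy5 arrays and for 48 and 45 on the Cy3 arrays. Obp51a had turned values of 0.019 and -0.712 on the Cy5 arrays and -0.148 on the Cy3 array of replicate 1. Obp22a had -0.650 and 0.024 on the Cy5 arrays and 0.255 on the Cy3 array of replicate 2. Obp56f had 0.387 and 0.029, both positive, on 1 array of each replicate. The others were Obp57a, Obp69a, Obp56c and Obp50c, each with values of both signs, from -0.282 to 0.243.

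With the arrays not turned, the family no longer lay on the positive side. Of the 43 members, 19 had a positive and 24 a negative mean, where 53.2% of all probes were positive, and the median was -0.0085 against 0.0085. Adjusted p-values in limma's moderated test ran from 0.752 to 0.999, and 0 of 12847 probes (0%) passed. An unadjusted p under 0.05 was found for 1 member, Obp56g, on the negative side, or 2.33% of the family against 5.57% of all probes (2.13% positive and 3.44% negative). The share of members negative in both replicates was 39.5%, against 25.9% of all probes, and 18.6% were positive in both, against 31.9%. Single arrays moved these values: the median was -0.052 and -0.0553 without the Cy5 arrays of replicates 1 and 2. Positive then were 10 and 15 of 43 members, where 53.3% of all probes were in both cases. Without the Cy3 arrays 24 of 45 and 22 of 47 members were positive, against 50.5% and 49.1% of all probes.

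In this reading 5 members kept 1 sign on the 4 arrays. It was positive for 2, or 4.65% against 7.15% of all probes, and negative for 3, or 6.98% against 6.45%. Obp83cd, one of the Obps with a doubled domain, was at 0.287 and 0.123 on the Cy5 arrays and at 0.140 and 0.10 on the Cy3 arrays, with a mean of 0.163 ± 0.072 (SD, n = 2; adjusted p = 0.752 in limma). Obp47b had 0.211 and 0.161, and then 0.118 and 0.016. Obp56g, a seminal gene, was at -0.017 and -0.156 on the Cy5 arrays and -0.364 and -0.226 on the Cy3 arrays, with a mean of -0.191 ± 0.00035 (adjusted p = 0.752 in limma). Obp58c had -0.093 and -0.057, and then -0.226 and -0.070, and Obp19c -0.248 and -0.015, and then -0.095 and -0.063. For these 5 members the turned Cy5 and Cy3 values lie on opposite sides, so their turned means, from -0.026 to 0.104, average over opposed values.

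Several of the largest single values behaved in this way in replicate 1 only. Without turning, Obp19b was at -0.414 (Cy5) and -0.740 (Cy3) in replicate 1 but at 0.098 and -0.012 in replicate 2. Obp19a was at 0.165 and 0.787 in replicate 1 and at 0.059 and -0.115 in replicate 2. Obp83b, the antennal gene once called OS-E, was at 0.506 and 0.231 in replicate 1 and at 0.155 and -0.002 in replicate 2. Their not turned means had an SD of 0.438, 0.356 and 0.206 over the replicates, each near or above the mean itself.

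**Figure D3:**
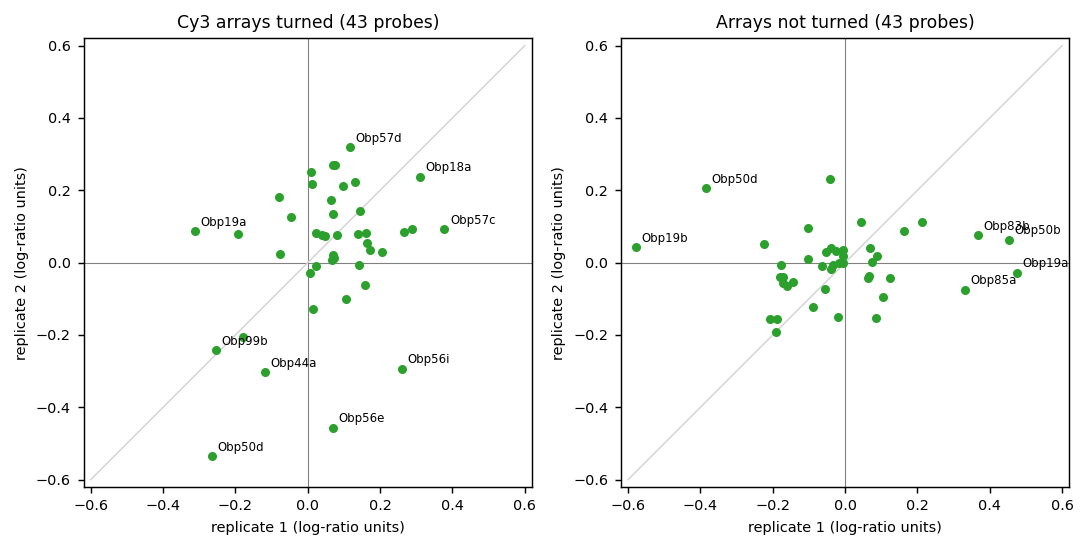
Replicate means of the 43 Obp probes with 4 values, replicate 1 on the horizontal and replicate 2 on the vertical axis (log-ratio units), with the Cy3 arrays turned (left) and not turned (right). Each point is 1 probe, the grey diagonal marks equal values, and probes with a mean beyond 0.2 or replicates far apart are named. On the left 26 probes lie at the upper right, positive in both, and 4 at the lower left; on the right the largest values are spread along replicate 1.

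Dye-swapped arrays agreed in replicate 2 more than in replicate 1. After turning, the arrays of a pair had the same sign for 21 of 43 members in replicate 1 and for 34 of 43 in replicate 2, against 44.9% and 67.3% of all probes. Over the 43 members, which share arrays and are not independent, the values before turning had a Pearson r of 0.273 between the arrays of replicate 1 and -0.679 between those of replicate 2, where the probes with 1 symbol had 0.169 and -0.565. The 2 Cy5 arrays had an r of 0.469 and the 2 Cy3 arrays 0.014. The turned replicate means had an r of 0.326 and those not turned 0.063, where all probes had 0.548 and 0.160.

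The other chemosensory groups also had turned medians above that of all probes, of differing size. Odorant receptors had 26 positive of 41 tested probes and a median of 0.031, gustatory receptors 22 of 36 and 0.023, and ionotropic receptors 28 of 36 and 0.059. Both replicates were positive for 18 of 41 odorant, 9 of 36 gustatory and 24 of 36 ionotropic receptor probes, where they were for 26 of 43 Obp probes and 36.0% of all probes. Further chemosensory proteins, among them Snmp and Che genes, had 10 positive of 11 and a median of 0.088. With the arrays not turned the receptors had medians of 0.082, 0.061 and 0.096, above 0, where the Obp median was -0.0085. The differences between these families were not tested. The most direct companions of the Obps could not be tested: lush, which binds the male pheromone, had turned values of 0.350 and 0.063 and Orco, the shared odorant co-receptor, -0.193 and -0.064, both on the Cy5 arrays alone.

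**Figure D4:**
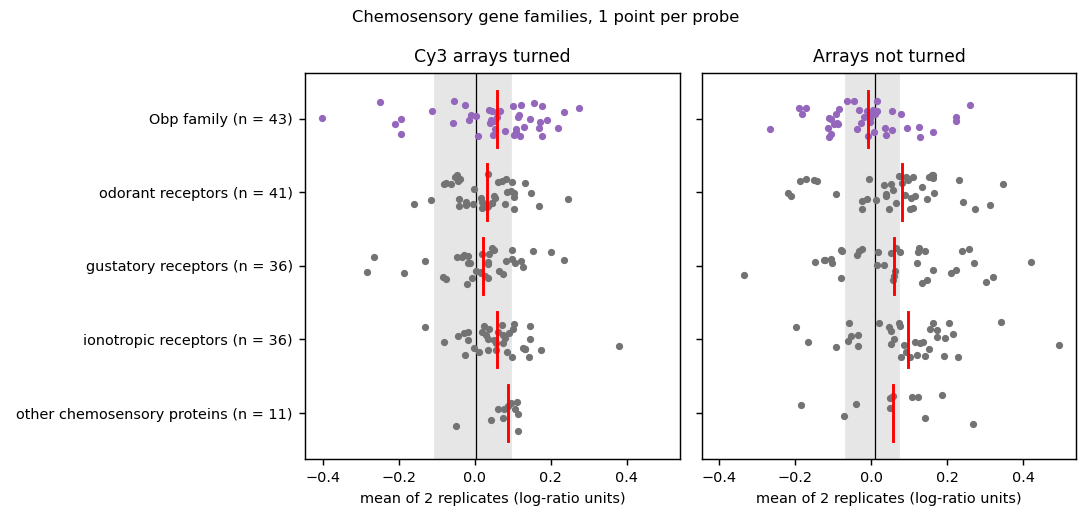
Mean of the 2 replicates (horizontal axis, log-ratio units) of each tested probe in 5 chemosensory gene groups, with the Cy3 arrays turned (left) and not turned (right). Points are probes, spread vertically for display, red bars are group medians, and the grey band and black line show the interquartile range and the median of all 12847 probes. The Obp median is 0.060 on the left and -0.0085 on the right. On the left the band runs from -0.104 to 0.094, and most Obp probes lie outside it, more of them above than below.

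Marker lists of other tissues were read in the same turned scale. Sense organ markers had 4 positive of 7 tested probes and a median of 0.0078, and eye markers 5 of 7 and 0.206. Salivary gland markers were negative for 6 of 8 (median -0.053), fat body markers for 3 of 3 (-0.186) and those of the male accessory gland, an adult organ that these larval extracts do not hold, for 2 of 2 (-0.048). Some lists held opposed markers. Eye markers ran from -0.4597 (sev) to 0.2695 (lz) and sense organ markers from -0.080 (Ir8a) to 0.3375 (Poxn). Salivary gland markers ran from -0.3005 (Sgs8) to 0.5155 (ng2), with 2 positive and 1 negative on all 4 arrays. The part of these tissues in the Obp values was not tested.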

How the data were processed

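RNA was compared on 4 two-colour arrays. Same-numbered arrays are a dye swap, per the labels, so the 4 arrays gave 2 replicates, and the pairing comes from there. Before turning, the deviations of same-numbered arrays from their orientation mean correlated at 0.339 in both pairs, which mirror each other. After turning this correlation has the opposite sign. Averaging a turned pair thus tends to bring the 2 replicate means closer, which limits the SDs with n = 2 and the p-values of that reading. The authors deposited 1 score per probe and array, a log ratio; its base, numerator, background correction and normalisation are not stated in the labels. Scanner signals were not used here, and precision is limited by the number of arrays. A value of -10000 (73 cells) was read as missing.

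Each array was centred on its median. The 12847 probes with 4 values were tested by limma's moderated test (limma 3.58.1, R 4.3.3) of the mean of 2 replicates against 0, with Benjamini-Hochberg adjustment over all probes and a threshold of 0.05. Figures used matplotlib 3.10.9 in Python 3.11.15. Symbols come from GEO's platform annotation: all 50 Obp probes matched a RefSeq gene (Release 6) by Entrez identifier. RefSeq served for names and neighbours only, and no coordinates or sequences are printed.

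Members and lists were chosen with earlier results of these data known. Values on every array are given for members with 1 sign on all arrays in either reading and for the 3 highest and 3 lowest turned means; other genes with array values were chosen after their values were seen. Alternatives were centring, spread, missing values, exact zeros, arrays as observations, the block, a dye term and leaving out each array.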

Additional observations from a re-analysis of the deposited data

Results flagged for a closer look

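For 5 members every turned Cy5 array lay on one side of 0 and every turned Cy3 array on the other, so that before turning all 4 arrays had 1 sign. If the deposited values are dye ratios, this is a difference between the dye orientations; if they already are ratios of sample to sample, it is 1 direction whatever the dye. Such members were no clear excess over the array: before turning, 4.65% of members were positive on all 4 arrays, against 7.15% of all probes. The negative shares were 6.98% and 6.45%. The means of the arrays not turned were -0.105 for Obp19c, 0.127 for Obp47b, -0.191 for Obp56g, -0.112 for Obp58c and 0.163 for Obp83cd. In limma's moderated test of these means the adjusted p-values were 0.778 for Obp19c, 0.768 for Obp58c and 0.752 for the other 3. Which of these applies was not tested.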

How the results depend on the processing

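The counts of Obp probes called and of Obp probes with a positive mean were followed through the alternatives after seeing the data. The turned family median stayed positive under every alternative run, from 0.040 to 0.0875 when 1 array was left out (0.0775 and 0.0875 without the Cy5 arrays of replicates 1 and 2, 0.040 and 0.0488 without the Cy3 arrays) and from 0.054 to 0.065 otherwise. The number of members with a positive turned mean was 31 and 30 of 43 without the Cy5 arrays of replicates 1 and 2. It was 28 of 45 and 31 of 47 without the Cy3 arrays, where more members could be tested. All probes were 49.2% to 50.4% positive with 1 array left out. When 1 array per replicate sufficed, 34 of 50 members were positive, and under the remaining alternatives 32 of 43. The median of the arrays not turned was -0.0306 when 1 array per replicate sufficed, and -0.0553 to 0.0073 with 1 array left out. Positive members not turned were then 10 and 15 of 43 without the Cy5 arrays of replicates 1 and 2. They were 24 of 45 and 22 of 47 without the Cy3 arrays. Over all probes turned, limma called 0, with 2980 at an unadjusted p under 0.05. With the 4 arrays as independent it also called 0, with 2455 under that unadjusted p. It called 3 with exact zeros read as missing, 1119 with the replicate block and 0 to 184 with 1 array left out (184 and 66 without the Cy5 and the Cy3 array of replicate 1). Obp probes called were 2 with the replicate block (Obp18a and Obp99b), and 0 to 1 with 1 array left out (Obp50d, without the Cy3 array of replicate 1). The block, which estimated a correlation of -0.408, changed no other call of a member. Of the 43 tested members, 15 changed the sign of the turned mean with some array left out, and 28 (21 positive and 7 negative) kept it. Among those 15 and with values on every array given by rule were Obp19c (-0.112 to 0.060), Obp47b (-0.0228 to 0.142), Obp58c (-0.0433 to 0.116) and Obp83cd (-0.0643 to 0.149). Of the members with 1 sign on all turned arrays, 4 moved by over 1.5 times: Obp58d to 0.047 and Obp93a to 0.083 without the Cy5 array of replicate 1, Obp99c to 0.065 without the Cy3 array of replicate 1 and Obp57d to 0.142 without that of replicate 2. The cause was not tested.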
